A study of Mus musculus with 8 samples.

Results

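The genes of ionotropic and metabotropic glutamate receptors and of the scaffold proteins that hold them at synapses were followed in ribosome-bound RNA of hypocretin neurons of the mouse. They were taken as the probe sets whose single gene symbol in the platform annotation was that of an AMPA (Gria), kainate (Grik), delta (Grid), NMDA (Grin) or metabotropic (Grm) receptor gene, or of a Dlg, Dlgap, Shank or Homer gene. This rule found 73 of 45101 probe sets, which stood for 35 genes. 30 of these genes, with 45 probe sets, reached a linear value of 50 on at least 4 of the 8 arrays and could be tested. The other 5, Grin2a, Grin3b, Dlgap2, Shank1 and Homer3, did not reach it and have no test here, and Grin1, Grm6 and Shank2 were not analysed here.

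Glutamate is the main fast excitatory transmitter of the brain. AMPA and kainate receptors open within milliseconds of its release, NMDA receptors need depolarisation as well and admit calcium, and metabotropic receptors act through G proteins. At the postsynaptic density, Dlg proteins (the PSD-95 family) hold receptors through PDZ domains, Dlgap proteins join Dlg to Shank, and Homer proteins join Shank to group I metabotropic receptors. Hypocretin neurons of the lateral hypothalamus, which promote wakefulness, receive glutamatergic input and are themselves known to carry a vesicular glutamate transporter.

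The RNA came from adult mice of line Hcrt JD218, on a mixed Fvb and c57/bl6j background, of both sexes and aged 6 to 12 weeks. All arrays, both fractions alike, came from this line. Its bacterial artificial chromosome transgene is named for the hypocretin gene and tags ribosomes for translating ribosome affinity purification (TRAP). In TRAP, tagged ribosomes and the RNA on them are pulled down from a tissue homogenate, here of dissected diencephalon (thalamus plus hypothalamus). The 4 immunoprecipitates were compared with the 4 unbound fractions of the same preparations, which serve as RNA of the whole tissue. Each preparation pooled 5 mice, so the spread between replicates is that of pools. Each sample was hybridised to 1 Affymetrix array after amplification over 2 cycles from 20 ng of RNA.

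The labelled cell type was checked first. Hcrt, the gene of the hypocretin peptides, had a mean log2 level of 15.36 ± 0.17 across immunoprecipitates and of 10.33 ± 0.55 across unbound fractions (SD, n = 4 each). All 5 markers of hypocretin neurons rose, also on the median-centred and quantile scales. On the spiked poly-A controls 4 of the 5 were called, and Lhx9 gave 0.11 and was not. The marker lists were chosen with earlier results of these data known, so they are no independent check. The vesicular glutamate transporter Slc17a6 stood at 12.73 ± 0.38 and 13.42 ± 0.36 (SD, n = 4 each) and was not called. Markers of other cells were lower and were still present. All 3 tested markers of GABAergic neurons, all 6 of thalamic neurons, all 7 of astrocytes and all 7 of oligodendrocytes fell. On the median-centred scale 2, 5, 6 and 3 of them were lower, in the same order, and on the quantile scale 3, 5, 6 and 6. Without replicate 4 the oligodendrocyte marker Mag was not called (-0.81 against -1.31). The summed linear signal of the astrocyte list was 1520 to 7790 across immunoprecipitates and 15000 to 22200 across unbound fractions, with Sox9 under 50 on all 4 immunoprecipitate arrays. For thalamic neurons the sums ran from 671 to 5400 against 10500 to 23200, with Lef1 under 50, for oligodendrocytes from 20600 to 44700 against 105000 to 122000, and for GABAergic neurons from 4300 to 9520 against 21200 to 25800, with no marker under 50 on all 4 in those lists. The sums were 121 to 280 against 1390 to 2740 for oligodendrocyte precursors (2 of 2 tested markers fell), 187 to 689 against 1500 to 2750 for microglia (5 of 5, with C1qa and Cx3cr1 under 50) and 87.4 to 370 against 731 to 1040 for endothelial and mural cells (3 of 3, with Cldn5 under 50). The 5 microglial markers gave 3 lower on the median-centred and 2 on the quantile scale, and the 3 endothelial and mural ones 2 on either scale. What part these cells have in the changes below was not tested. Fewer cells of a type and less RNA per cell cannot be told apart in such samples, nor can cell type and binding to ribosomes. Replicate 4 stood apart in 1 of 2 measures of RNA integrity. The 3' minus 5' signal of Gapdh was 4.50 in immunoprecipitate 4 against 2.12 to 2.31 in the other immunoprecipitates, and 3.36 in unbound fraction 4 against 1.94 to 2.08. That of Actb did not set it apart among the immunoprecipitates, with 4.11 in replicate 4 and 4.05 in replicate 1, and was 3.80 in unbound fraction 4 against 3.01 to 3.45. Of the 30 tested genes, 19 had their lowest immunoprecipitate value in replicate 4, where 27.6% of all tested genes did. Without replicate 4 the same count of 17 was lower and 0 higher, with a median of -1.20, and the called changes that shrank most were those of Grm5 (-1.87 to -1.45), Grm3 (-1.80 to -1.41) and Grm2 (-2.49 to -2.12).

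17 of the 30 genes were lower in the immunoprecipitates and 0 were higher, where a call needed a limma p under 0.05 after Benjamini-Hochberg adjustment together with a 2-fold change. The lower genes make 56.7%, beside 44.2% of all 10398 genes tested, and 4.74% of all genes were higher. Without the fold threshold, 1 was higher at the same adjusted p. The median log2 fold change (immunoprecipitate minus unbound) was -1.23 over these genes and -0.85 over all genes. For 21 genes every immunoprecipitate array lay under every unbound array, 70.0% of the 30, where 50.6% of all genes did so. The same 17 genes were lower with the replicate number as a block (44.8% of all genes lower and 4.98% higher). The 10 lower genes that were at least 4-fold down in the fit belonged to AMPA, kainate, NMDA and group II metabotropic receptors and to all 4 scaffold families. The shares of all genes at 4-fold and without a fold threshold are not given here, so those counts do not set these genes apart.

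The authors normalized each group apart, and the counts moved with how the fractions were scaled against each other. After median centring 10 genes were lower and 2 higher (19.6% and 20.4% of all genes), after quantile normalization 11 and 2 (20.5% and 16.5%), and on the spiked poly-A controls 29 and 0 (94.5% and 0.673%). The median of all probe sets moved by 0.92, 0.84 and -1.97 on these scales. The poly-A controls themselves varied between arrays, with means from 7.17 to 10.5 in the unbound fractions and from 10.03 to 11.2 in the immunoprecipitates. 10 genes were lower on all 4 scales, namely Gria2, Gria3, Grik3, Grin2b, Grin2c, Grm2, Dlg3, Dlgap1, Shank3 and Homer2. They are 33.3% of the 30, where 17.5% of all genes were lower on all 4. Grik4 and Grm8 were the genes called higher on the median-centred and quantile scales.

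**Figure D1:**
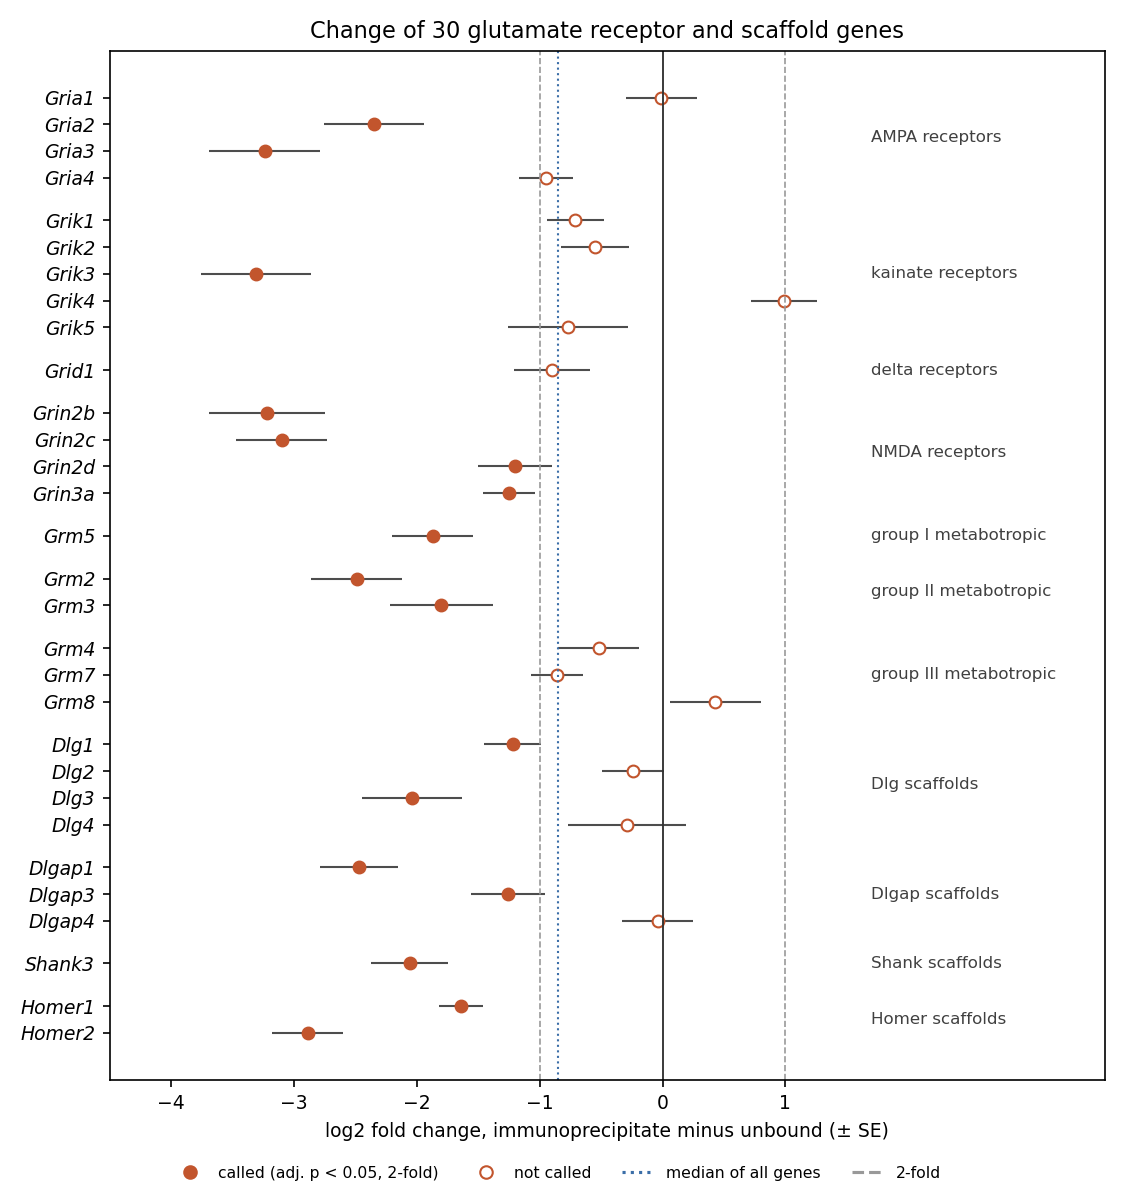
Log2 fold change (immunoprecipitate minus unbound, ± SE) of the 30 tested genes by family, on the scale of the biotinylated controls. Filled points passed an adjusted p under 0.05 and 2-fold, and all 17 lie left of -1, while Grik4 at 0.99 and Grm8 at 0.43 lie right of 0.

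**Figure D2:**
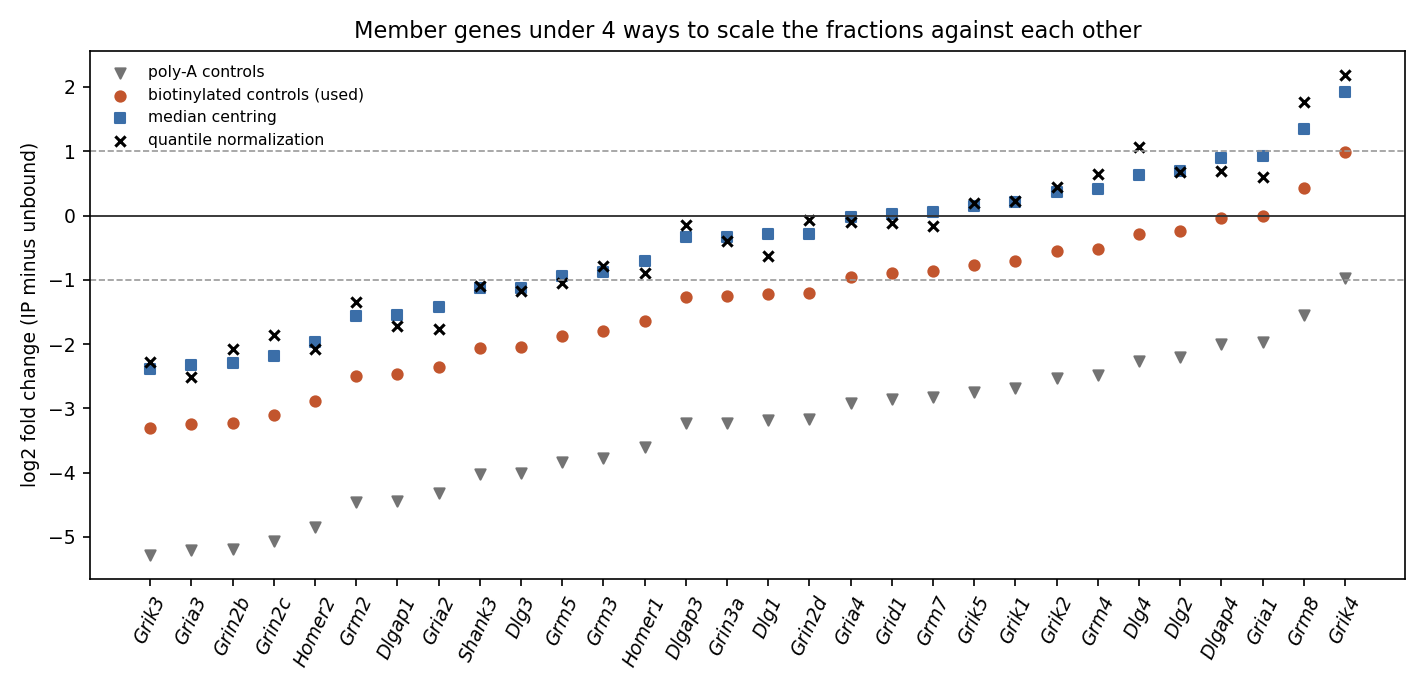
Log2 fold change of each tested gene on 4 scales, ordered by the change on the biotinylated controls. Most genes move together from scale to scale, and Gria1 for example lies at -0.01, 0.92, 0.60 and -1.97 on the biotinylated, median-centred, quantile and poly-A scales.

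AMPA receptors are tetramers of the subunits GluA1 to GluA4, which Gria1 to Gria4 encode, and GluA2 makes the channel nearly impermeable to calcium. Gria2 and Gria3 fell and Gria1 and Gria4 were not called. Gria3 stood at log2 levels of 9.51, 8.82, 8.32 and 7.13 in immunoprecipitates 1 to 4 and at 11.62, 11.96, 12.09 and 11.10 in the unbound fractions. The groups were apart, with immunoprecipitate 4 lowest. Its log2 fold change was -3.24 ± 0.45 (SE), or 9.48-fold lower, with an adjusted p of 0.00018, and a second probe set, under 50 on 2 immunoprecipitate arrays, was at least 6.11-fold lower. Gria2 stood at 10.61, 10.25, 10.14 and 8.52 against 12.24, 12.45, 12.45 and 11.78. Again every immunoprecipitate lay under every unbound array and immunoprecipitate 4 was lowest. It fell 5.10-fold (log2 fold change -2.35 ± 0.41 SE, adjusted p = 0.00065), another probe set gave -2.65 ± 0.21, the third, under 50 on all 4 immunoprecipitate arrays, was at least 2.40-fold lower, and without replicate 4 the change was -2.04.

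Gria1, shown in full after its values were seen, stood at 10.51, 11.34, 11.07 and 10.94 in the immunoprecipitates and at 10.28, 11.30, 10.83 and 11.48 in the unbound fractions. The groups overlapped throughout, and the log2 fold change was -0.01 ± 0.29 (adjusted p = 0.98). Its second tested probe set gave -0.76 ± 0.29 (adjusted p = 0.043), under the 2-fold threshold. Gria4 gave -0.95 ± 0.22 (adjusted p = 0.0033) and missed 2-fold, although its groups did not overlap, and it passed 2-fold when immunoprecipitate 2 or 3, unbound fraction 2, or both arrays of replicate 2 or 3 were left out. It gave -0.03 after median centring and -0.10 after quantile normalization.

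A ratio of 2 genes within an array does not depend on any constant that scales the array. All pairs of tested genes of 1 family were compared in this way, 36 in all, by an exact two-sided permutation test of the fractions, added after the data were seen. In 21 pairs the ratio changed (exact permutation p = 0.029 each, the smallest that 4 against 4 arrays allow, adjusted p = 0.049 over the 36). How often pairs of other genes change in this way was not tested, so the count is not a trait of these families. The test treats the 8 arrays as unpaired. Exchanging fractions within the 4 preparations cannot give a p under 0.125, and the 21 pairs moved the same way in all 4 preparations, as did 26 of the 36 pairs in all. Of the 21, 14 had no array under 50. All 6 AMPA pairs were among them. Gria1 minus Gria3 was -1.34, -0.66, -1.26 and 0.38 on the log2 scale in the unbound fractions and 1.00, 2.52, 2.75 and 3.81 in the immunoprecipitates. The ratio of Gria1 to Gria3 was thus higher in every immunoprecipitate, by 3.24 ± 0.70 (SE). Gria1 against Gria2 moved by 2.34 ± 0.63, Gria2 against Gria3 by 0.89 ± 0.17, and Gria3 minus Gria4 changed by -2.30 ± 0.53. Over every combination of tested probe sets the change of Gria1 against Gria3 lay between 2.12 and 3.24 and that against Gria2 between 0.67 and 2.64. Gria1 against Gria4 moved by 0.94 ± 0.36 on the chosen probe sets but lay between -0.32 and 0.94 over the combinations, so its direction rests on the probe set. Quantile normalization, which is not a constant shift, also gave 21 pairs. Pairs of a family share genes, and those at the smallest p share the same adjusted p. They thus pass or fail together, and the adjusted p does not weigh each pair apart.

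**Figure D3:**
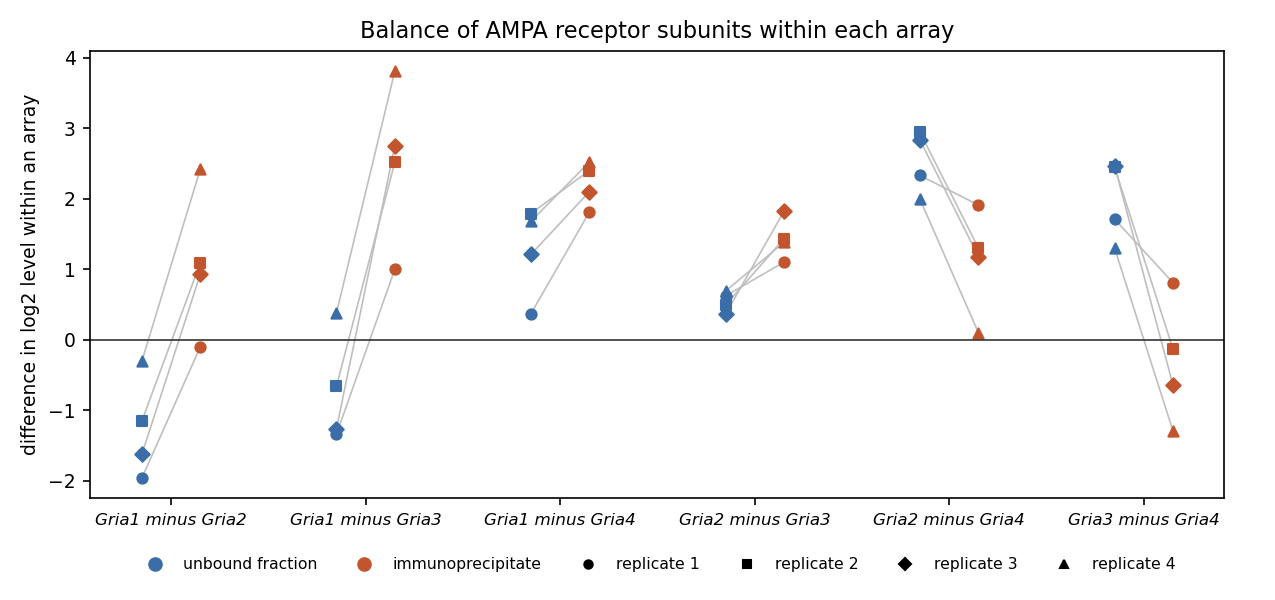
Difference in log2 level between 2 AMPA receptor genes within each array, in the unbound fractions (blue) and immunoprecipitates (orange), with lines joining the fractions of 1 preparation. Gria1 minus Gria3 runs from -1.34 to 0.38 in the unbound fractions and from 1.00 to 3.81 in the immunoprecipitates.

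Kainate receptors are built from Grik1 to Grik3, which form channels alone, and from Grik4 and Grik5, which need one of these as partner. Grik3 fell, and Grik4 had the largest positive change of all 30 genes. Grik3 stood at 7.41, 6.28, 6.02 and 5.17 in the immunoprecipitates and at 9.12, 9.83, 10.07 and 9.13 in the unbound fractions. With 3 of 4 immunoprecipitate arrays at or above 50 it was at least 9.19-fold lower (log2 fold change -3.31 ± 0.45 SE, adjusted p = 0.00016). Grik4 stood at 7.24, 7.71, 7.64 and 7.16 against 6.26, 6.89, 6.53 and 6.09. All 4 immunoprecipitates lay above all unbound fractions, as for 6.53% of all genes, but its log2 fold change of 0.99 ± 0.27 (adjusted p = 0.0080) fell just short of 2-fold. It passed when immunoprecipitate 1 or 4, unbound fraction 2 or 3, or both arrays of replicate 2 were left out. It gave 1.92 after median centring, 2.19 after quantile normalization and -0.97 on the poly-A controls. Within arrays, Grik3 minus Grik4 changed by -4.19 ± 0.45 with the 1 array of Grik3 under 50 raised to 50, a bound on the shift (exact permutation p = 0.029, adjusted p = 0.047). The ratio of Grik4 also moved up against the other kainate receptor genes at the same exact p, with changes of -1.71 ± 0.29 in Grik1 minus Grik4, -1.54 ± 0.29 in Grik2 minus Grik4 and 1.77 ± 0.53 in Grik4 minus Grik5. Grik1, Grik2 and Grik5 gave log2 fold changes of -0.71 ± 0.23, -0.55 ± 0.28 and -0.77 ± 0.49, none of them called. Grik5 was at 6.09 in immunoprecipitate 1 and between 8.22 and 8.38 in the others.

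**Figure D4:**
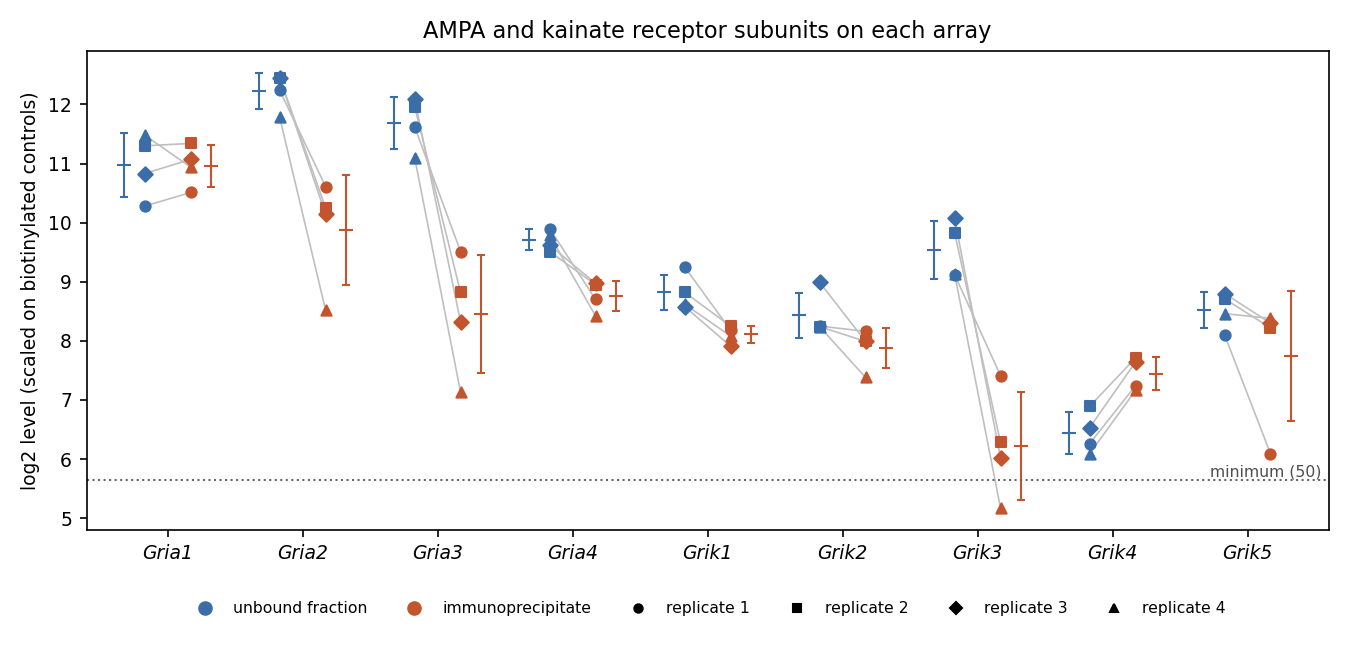
Log2 levels of the AMPA and kainate receptor genes on all 8 arrays, with marker shapes for replicates, lines joining fractions of 1 preparation, bars for mean ± SD, and the minimum of 50 dotted. All genes shown but Gria1 and Grik4 drop in every preparation, Grik4 is higher in every immunoprecipitate, and Gria1 overlaps.

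Promoter sequences from RefSeq (GRCm38.p6, 250 bases before to 50 after a start site) matched 22 of the 30 tested genes, with 36 start sites. They were read for 4 motifs on both strands: the core of the RE1 site of the neuronal repressor REST (AGCACC, then any 2 letters, then GGACAG), the GC box GGGCGG, the TATA box TATAAA and the cyclic AMP element TGACGTCA. Gria2 held the RE1 letters, as did 0.0517% of all 32851 promoters. 16 of the 36 promoters held a GC box, which 35.7% of all promoters hold, 3 of 36 held a TATA box (13.6% of all) and 0 held TGACGTCA (1.79% of all). Sequences are shown for Gria2 and Gria4, and for Grik3 and Grik4, subunits of 1 family whose ratio differed between the fractions, with RE1 letters and GC boxes in capitals. Gria2 lies at chr3:80802786-80803085 on the minus strand, Gria4 at chr9:4796185-4796484 on the minus strand, Grik3 at chr4:125490446-125490745 on the plus strand and Grik4 at chr9:42944322-42944621 on the minus strand.
Gria2: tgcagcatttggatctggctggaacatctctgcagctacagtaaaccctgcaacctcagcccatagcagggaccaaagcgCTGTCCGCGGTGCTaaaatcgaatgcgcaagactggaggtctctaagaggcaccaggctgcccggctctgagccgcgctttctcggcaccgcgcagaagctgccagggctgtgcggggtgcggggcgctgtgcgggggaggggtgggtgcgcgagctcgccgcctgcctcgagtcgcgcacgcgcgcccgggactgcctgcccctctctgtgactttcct
Gria4: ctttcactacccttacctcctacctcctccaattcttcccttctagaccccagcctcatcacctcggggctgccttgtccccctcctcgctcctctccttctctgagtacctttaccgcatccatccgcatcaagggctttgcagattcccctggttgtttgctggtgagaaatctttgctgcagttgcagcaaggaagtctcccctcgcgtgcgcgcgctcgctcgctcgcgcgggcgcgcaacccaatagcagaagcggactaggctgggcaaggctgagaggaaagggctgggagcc
Grik3: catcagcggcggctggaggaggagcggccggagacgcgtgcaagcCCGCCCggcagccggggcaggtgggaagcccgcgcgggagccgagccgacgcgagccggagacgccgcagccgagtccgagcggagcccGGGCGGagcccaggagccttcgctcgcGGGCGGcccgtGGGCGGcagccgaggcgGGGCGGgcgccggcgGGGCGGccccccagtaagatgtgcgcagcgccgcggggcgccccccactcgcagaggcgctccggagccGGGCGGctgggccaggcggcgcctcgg
Grik4: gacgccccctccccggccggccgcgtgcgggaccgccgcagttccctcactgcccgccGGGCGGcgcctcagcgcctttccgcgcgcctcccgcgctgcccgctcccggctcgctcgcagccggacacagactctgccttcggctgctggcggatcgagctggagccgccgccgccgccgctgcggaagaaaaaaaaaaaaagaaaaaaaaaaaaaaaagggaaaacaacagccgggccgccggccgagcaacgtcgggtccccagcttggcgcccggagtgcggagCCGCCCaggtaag
In Gria2 the capitals are the RE1 letters on the opposite strand, starting at position -170 from the start site. Grik3 holds 7 GC boxes and Grik4 holds 2, and Gria4 holds none of these motifs. CG dinucleotides number 26, 17, 50 and 42 in the order printed, against a median of 12 over the 36 promoters and of 7 over all promoters. These matches describe letters and not binding.

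Of the delta receptors, which glutamate does not open and which bind cerebellins, Grid1 was measured. It stood at 8.90, 8.58, 9.53 and 9.70 in the immunoprecipitates and 10.01, 9.69, 9.99 and 10.61 in the unbound fractions. Each immunoprecipitate was lower than its own unbound fraction, but the groups met at 9.69 and 9.70. The change of -0.90 ± 0.31 (adjusted p = 0.025) did not reach 2-fold, and it did when immunoprecipitate 3, immunoprecipitate 4 or unbound fraction 2 was left out (-1.02, -1.07 and -1.03).

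NMDA receptors combine an obligatory GluN1 subunit, from Grin1, with GluN2 or GluN3 subunits that set their kinetics. All 4 tested genes fell, where 44.2% of all genes did, but Grin2d and Grin3a were not called after median centring (-0.28 and -0.33) or quantile normalization (-0.07 and -0.39). Grin2b, a GluN2 subunit abundant in the young brain, stood at 6.00, 4.94, 6.05 and 4.86 against 9.0, 9.12, 9.25 and 7.36. Replicate 4 was lowest in both fractions, and no immunoprecipitate reached an unbound array. With 2 of 4 immunoprecipitate arrays at or above 50, Grin2b was at least 7.23-fold lower (log2 fold change -3.22 ± 0.47 SE, adjusted p = 0.00024). Grin2c, known from cerebellar granule cells, thalamus and astrocytes, stood at 4.74, 4.79, 5.63 and 3.80 against 8.01, 7.79, 8.13 and 7.45. All 4 immunoprecipitates were under 50, so it was at least 4.63-fold lower (adjusted p = 7.4e-05). Grin2d gave -1.20 ± 0.30 (adjusted p = 0.0058), lost its call without immunoprecipitate replicate 1, and Grin3a gave -1.25 ± 0.21 (adjusted p = 0.00049), with -0.95 ± 0.24 at its second probe set. With values under 50 raised to 50, the ratio of Grin2c to Grin3a changed by -0.96 ± 0.25 (exact permutation p = 0.029, adjusted p = 0.047), and that to Grin2d by -1.01 ± 0.35 with overlapping groups (exact permutation adjusted p = 0.086). Grin2a lay at 2.20 on every immunoprecipitate and 2.15 on every unbound array, near the lowest value on the arrays, and Grin3b between 2.76 and 5.24.

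Metabotropic receptors fall into 3 groups. Group I (Grm5 here) couples to phospholipase C, and groups II (Grm2, Grm3) and III (Grm4, Grm7, Grm8) lower cyclic AMP, often from the presynaptic side. Groups I and II fell, with 3 of 3 tested genes called, while 0 of 3 of group III were, where 44.2% of all genes were lower. Groups this small do not carry a contrast between them, and after median centring Grm2 alone of the 3 kept its call. Grm5 stood at 9.13, 8.23, 8.60 and 7.77 against 10.24, 10.21, 9.87 and 10.87, and the groups did not meet. It fell 3.64-fold (log2 fold change -1.87 ± 0.33 SE, adjusted p = 0.00071), and a second probe set, which ran from 3.62 to 9.0 across the immunoprecipitates, was at least 5.55-fold lower. Its change after median centring was -0.94, short of 2-fold.

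Grm2, a group II receptor, stood at 5.96, 6.49, 6.08 and 4.70 against 8.03, 8.52, 8.33 and 8.32. The unbound arrays lay close together and immunoprecipitate 4 was under 50, so it was at least 4.79-fold lower (log2 fold change -2.49 ± 0.37 SE, adjusted p = 0.00025). Grm3, the group II receptor that astrocytes also express, stood at 8.02, 7.41, 7.08 and 6.29 against 9.69, 8.81, 8.26 and 9.27. It fell 3.49-fold (-1.80 ± 0.42, adjusted p = 0.0035), and gave -1.41 without replicate 4, -0.88 after median centring and -0.78 after quantile normalization, uncalled on the last pair of scales. Astrocyte markers fell with it, as given above.

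Grm7, a group III receptor of presynaptic active zones, stood at 10.26, 9.94, 9.91 and 9.63 against 11.08, 10.96, 10.60 and 10.55. Its groups were apart by less than 2-fold (-0.86 ± 0.21, adjusted p = 0.0053). Grm4 stood at 7.36, 6.55, 7.09 and 6.07 against 7.72, 7.04, 7.34 and 7.04, overlapping groups with a change of -0.52 ± 0.33 (adjusted p = 0.19). Grm8 stood at 6.16, 6.40, 6.90 and 5.14 against 6.24, 5.49, 5.56 and 5.61, near the minimum of 5.64. It was the gene whose call depended most on the scale. Its change was 0.43 ± 0.37 (adjusted p = 0.34) on the biotinylated controls, 1.35 and called after median centring, 1.77 and called after quantile normalization, and -1.54 and called on the poly-A controls. Within arrays, with the 4 values of Grm8 under 50 raised to 50, Grm7 minus Grm8 changed by -1.33 ± 0.27 and Grm4 minus Grm8 by -0.99 ± 0.25 (exact permutation p = 0.029, adjusted p = 0.047 for each).

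Of 10 tested scaffold genes 7 were lower (70.0%, where 44.2% of all genes were) and 0 higher, and their median change was -1.45. Of 20 tested receptor genes 10 were lower, and their median change was -1.08. Dlg genes encode the PSD-95 family, with Dlg4 for PSD-95 itself, Dlg1 for SAP97, Dlg2 for PSD-93 and Dlg3 for SAP102. Dlg3 stood at 7.52, 8.83, 8.53 and 6.91 in the immunoprecipitates and 9.76, 10.34, 10.22 and 9.64 in the unbound fractions. It fell 4.11-fold in spite of spread immunoprecipitates (log2 fold change -2.04 ± 0.41 SE, adjusted p = 0.0016). Dlg1 was very even in the immunoprecipitates, at 10.45, 10.49, 10.50 and 10.33, against 11.78, 11.72, 11.04 and 12.11. It fell 2.33-fold (-1.22 ± 0.23, adjusted p = 0.0011), but gave -0.29 after median centring, -0.63 after quantile normalization and -0.50 ± 0.37 at its second probe set, none of them called. Dlg2 gave -0.24 ± 0.25 (adjusted p = 0.42), with 0.97 ± 0.32 at its second probe set (adjusted p = 0.022), and Dlg4, close to the minimum of 50, gave -0.29 ± 0.48 (adjusted p = 0.61). The ratio of Dlg2 to Dlg3 rose by 1.80 ± 0.42 and that of Dlg1 to Dlg2 changed by -0.98 ± 0.24 (exact permutation p = 0.029, adjusted p = 0.049 for each).

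**Figure D5:**
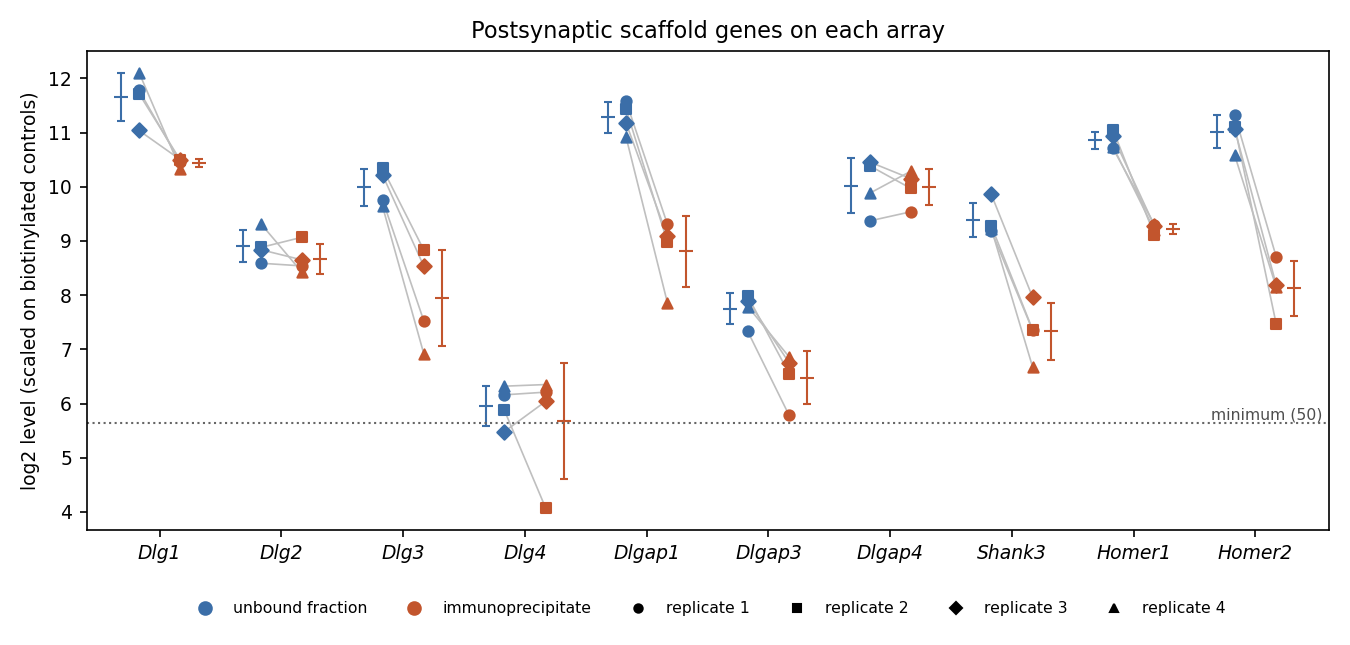
Log2 levels of the scaffold genes on all 8 arrays, with marker shapes for replicates, lines joining fractions of 1 preparation, bars for mean ± SD, and the minimum of 50 dotted. Dlg1, Dlg3, Dlgap1, Dlgap3, Shank3, Homer1 and Homer2 drop in every preparation, and Dlg2, Dlg4 and Dlgap4 overlap between fractions.

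Dlgap proteins, also named SAPAP or GKAP, bind the guanylate kinase domain of Dlg proteins. Dlgap1 stood at 9.31, 8.98, 9.09 and 7.86 against 11.58, 11.44, 11.18 and 10.92. Replicate 4 was again lowest in both fractions, and the groups were well apart. It fell 5.54-fold (log2 fold change -2.47 ± 0.32 SE, adjusted p = 0.00012), with -1.67 ± 0.25 at a second probe set and at least a 5.22-fold drop at the third, under 50 on 3 immunoprecipitate arrays. Dlgap3 stood at 5.78, 6.55, 6.75 and 6.86 against 7.33, 7.98, 7.90 and 7.79 and fell 2.40-fold (-1.26 ± 0.30, adjusted p = 0.0041), uncalled at -0.34 and -0.14 after median centring and quantile normalization. Dlgap4 differed by probe set, with -0.04 ± 0.29 at the brighter and -1.27 ± 0.22 (adjusted p = 0.00062) at the other. The ratio of Dlgap3 to Dlgap4 therefore changed by -1.23 at the first and by 0.01 at the second.

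Shank3, a master scaffold that links Dlgap and Homer proteins to actin, stood at 7.35, 7.36, 7.96 and 6.67 against 9.19, 9.28, 9.86 and 9.23. Replicate 3 was highest in both fractions and the groups were apart. It fell 4.16-fold (log2 fold change -2.06 ± 0.31 SE, adjusted p = 0.00026). Shank1 lay between 2.17 and 2.20 on all arrays.

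Homer proteins bind group I metabotropic receptors, Shank and inositol trisphosphate receptors, and a short Homer1 form is induced by activity. Homer2 stood at 8.71, 7.47, 8.19 and 8.15 against 11.32, 11.11, 11.06 and 10.58. It fell 7.39-fold (log2 fold change -2.89 ± 0.29 SE), with the smallest adjusted p among the probe sets that stand for the 30 genes, 2.8e-05, and gave -2.20 ± 0.38 at its second probe set. Homer1 stood at 9.30, 9.11, 9.28 and 9.20 against 10.71, 11.05, 10.93 and 10.74, tight within each fraction. It fell 3.11-fold (-1.64 ± 0.18, adjusted p = 4.7e-05), with -1.05 ± 0.32 and -0.98 ± 0.31 at its other tested probe sets. Homer1 was not called after median centring (-0.71) or quantile normalization (-0.90). Which isoform of Homer1 each probe set reads was not analysed here. The ratio of Homer1 to Homer2 rose by 1.25 ± 0.27, from between -0.61 and 0.16 in the unbound fractions to between 0.59 and 1.63 (exact permutation p = 0.029, adjusted p = 0.049). Homer3, untested, lay at 2.62 on all immunoprecipitates and at 4.71, 5.26, 5.65 and 4.32 in the unbound fractions.

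Of the 12 genes with several tested probe sets, 5 were lower at all of them, namely Gria2, Gria3, Grm5, Dlgap1 and Homer2. Another 3 were called at none, 4 had probe sets that differed in call, and 0 had opposite calls. Of all tested probe sets taken singly, 45.1% were lower and 4.88% higher. How often the probe sets of other genes share a call is not given here, so these counts do not set the 12 genes apart.

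Longer genes were more often lower on these arrays, from 23.6% of the shortest to 66.5% of the longest of 5 equal classes by genomic length. The receptor and scaffold genes are long. Their median genomic length was 217 kb, against 25.7 kb for all tested genes with a length in the RefSeq table. 22 of the 30 lay in the longest class, from 81.0 to 2390 kb. There 11 of 22 were lower, with a median change of -1.08, beside 66.5% and -1.54 for all genes of that class. In the class from 35.7 to 81.0 kb 4 of 5 were lower, beside 55.1% of all genes, and from 18.6 to 35.7 kb 0 of 1, beside 42.2%. Grin2c and Grm2, which span 18.1 and 11.6 kb, lay in the class from 8.54 to 18.6 kb and both fell, where 33.2% of all genes fell. The part of gene length in these changes was not tested.

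Genes that work with these receptors were taken from 8 lists. Of 55 tested partner genes 31 were lower and 5 higher, beside 44.2% and 4.74% of all genes, and their median change was -1.49. After median centring 16 fell and 9 rose, and on the poly-A controls 50 fell and 0 rose. Auxiliary subunits of AMPA receptors, which set their gating and traffic, gave 3 lower and 1 higher of 10. Their direction depended on the scale. The median-centred scale turned the counts to 1 lower and 3 higher, with a median change of 0.47 in place of -0.45. The quantile scale gave 2 lower and 2 higher (median 0.41), and the poly-A scale 9 lower and 0 higher. The TARP Cacng5 was at least 7.25-fold lower and Shisa9 fell 3.32-fold, whereas the TARP Cacng3 was at least 5.25-fold higher (log2 fold change 2.53 ± 0.44 SE, adjusted p = 0.00069). Both auxiliary subunits of kainate receptors changed, in opposite directions. Neto1 rose 3.37-fold (1.75 ± 0.21, adjusted p = 7.4e-05) and Neto2 fell 3.08-fold (-1.62 ± 0.24, adjusted p = 0.00024), the latter uncalled after median centring and quantile normalization. On the poly-A controls Neto1 gave -0.21 and Cacng3 0.56, neither called. Of 3 cerebellins, secreted partners of delta receptors, Cbln1 rose 5.16-fold (2.37 ± 0.23, adjusted p = 2.7e-05) and Cbln4 fell 6.99-fold, with Cbln1 at 0.40 and uncalled on the poly-A controls.

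Adaptors that bind the tails of AMPA receptor subunits gave 3 lower and 0 higher of 5, with Grip1 at least 3.73-fold lower, the ATPase Nsf down 3.55-fold and Grip2 3.19-fold. Of these adaptors 1 was lower on the median-centred and 2 on the quantile scale. Of 12 other postsynaptic scaffolds 8 fell and 0 rose, but only 2 on the median-centred and 3 on the quantile scale. Synpo, the synaptopodin of the spine apparatus, and Cnksr2 were at least 3.91- and 4.05-fold lower, both under 50 on all 4 immunoprecipitate arrays, and Lin7a fell 3.12-fold. Postsynaptic kinases and regulators of small GTPases gave 6 lower and 2 higher of 11, or 4 and 2 after median centring and quantile normalization. With the replicate block Kalrn (-1.58) joined the lower ones, at an adjusted p of 0.00012 against 0.073 without it. The activity-induced Arc and the kinase subunit Camk2a were at least 5.06- and 5.14-fold lower and Sipa1l1 fell 4.79-fold. The higher ones, named after their values were seen, were the exchange factor Iqsec2 at 3.11-fold and Nos1, the neuronal nitric oxide synthase tied to NMDA receptors by PSD-95, at 2.32-fold (1.21 ± 0.41, adjusted p = 0.025). On the poly-A controls they gave -0.33 and -0.75, not called.

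Effectors of group I metabotropic receptors gave 6 lower and 0 higher of 8, or 4 and 1 on the median-centred and 3 and 1 on the quantile scale. Gnaq and Ncdn lost their calls without replicate 4 (-0.91 and -0.95). The phospholipase Plcb1 fell 7.13-fold, Grasp, also named tamalin, was at least 5.38-fold lower and the calcium release channel Itpr2 at least 2.05-fold lower. Among plasma membrane glutamate transporters 3 of 4 fell and 0 rose, or 3 and 1 on the median-centred and 2 and 1 on the quantile scale. The astrocyte transporters Slc1a2 and Slc1a3 fell 7.52- and 4.09-fold and the neuronal Slc1a1 4.20-fold, beside the astrocyte marker sums given above. Of the partner genes named as lower, Grip2, Gnaq and Ncdn lost their calls after median centring and quantile normalization, as Neto2 did. Shisa9, Nsf and Lin7a lost theirs after median centring, and Grasp and Slc1a3 after quantile normalization.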

How the data were processed

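The authors deposited 1 value per probe set and array in 8 samples, taken here as log2 from its range, since the labels do not state the scale. GCRMA made them, per the submitters' processing notes, with each group normalized apart, per the labels. Its version was not stated. Both groups were then shifted, each by a single constant, until the means of 18 biotinylated controls matched, following the series' design text (the deposited means differed by 0.02). Of the probe sets other than 64 controls, 17865 at or above a linear 50 (log2 5.64) on at least 4 arrays entered a limma fit (version 3.58.1, R 4.3.3, lmFit and eBayes with trend). A call needed a Benjamini-Hochberg adjusted p under 0.05 over all tested probe sets and 2-fold. The fit was tested on simulated data. A gene was represented by its tested probe set with the highest mean. A fold is given as "at least" where a group had arrays under 50, which were raised to 50. Gene names came from the platform annotation (34958 probe sets with 1 symbol, 932 with several, 9211 not listed), lengths and promoters from RefSeq. Permutation tests used scipy 1.17.1 and plots matplotlib 3.10.9.

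Values on all arrays are given for up to 2 tested genes of each family with the largest absolute change, those called higher, and those whose call changed direction with the scale, and up to 3 called genes of each partner list are named. Members, lists and this rule were chosen with earlier results of these data known. Replicate numbers join fractions of 1 preparation, and deviations from group means of same-numbered arrays correlated at 0.44, 0.33, 0.26 and 0.59 across probe sets, although replicates 2 and 3 were hardly told apart (0.26 and 0.24 between their different numbers). The pairing rests on the labels. The number of arrays limits the precision.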

Additional observations from a re-analysis of the deposited data

Results flagged for a closer look

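In 7 of 60 groups of 4 arrays, 1 array lay far from the others, where chance flags about 1 in 20 groups. Dlg4 was at 4.07 in immunoprecipitate 2, with the others between 6.04 and 6.35. Grik5 was at 6.09 in immunoprecipitate 1, with the others between 8.22 and 8.38. Among unbound fractions, Grik2 was at 8.99 in replicate 3 (others 8.24 to 8.25), Shank3 at 9.86 in replicate 3 (9.19 to 9.28), Grm8 at 6.24 in replicate 1 (5.49 to 5.61), Grin2d at 7.19 in replicate 1 (7.86 to 7.92) and Grin2b at 7.36 in replicate 4 (9.0 to 9.25).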

How the results depend on the processing

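Scaling moved the counts most. Against 17 lower and 0 higher of the receptor and scaffold genes, median centring gave 10 and 2, quantile normalization 11 and 2, poly-A controls 29 and 0, no shift 17 and 1, a 4-fold threshold 10 and 0, and no fold threshold 21 and 1. For the changed fold thresholds the shares of all genes are not given here. Leaving out 1 array or both arrays of a replicate gave 16 to 19 lower and 0 to 1 higher. The genes called higher were Grik4, and after median centring and quantile normalization also Grm8. The median of -1.23 became -0.31, -0.28 and -3.20 on the median-centred, quantile and poly-A scales and ran from -1.32 to -1.12 with arrays left out. Partner genes, 31 lower and 5 higher, gave 16 and 9, 17 and 8, and 50 and 0 on these scales and 16 and 2 at 4-fold, and 29 to 33 lower and 4 to 5 higher with arrays left out. The cause of these moves was not tested, beyond the shift or threshold itself.

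Some log2 fold changes turned sign, none of a gene called on the biotinylated controls. After median centring Dlg2 gave 0.69, Dlg4 0.63, Dlgap4 0.89, Gria1 0.92, Grid1 0.03, Grik1 0.21, Grik2 0.37, Grik5 0.15, Grm4 0.41 and Grm7 0.06. After quantile normalization Dlg2 gave 0.67, Dlg4 1.06, Dlgap4 0.70, Gria1 0.60, Grik1 0.23, Grik2 0.44, Grik5 0.19 and Grm4 0.65. On the poly-A controls Grik4 gave -0.97 and Grm8 -1.54, with no shift Gria1 gave 0.01, and with the mean of probe sets Dlg2 gave 0.37. With arrays left out, Dlg4 ran from -0.57 to 0.24, Dlgap4 from -0.25 to 0.11 and Gria1 from -0.24 to 0.17. With the replicate block 17 genes were lower and 0 higher, and no call of the 30 changed, while partner genes gave 32 lower and 5 higher, through Kalrn. With pairing, 0 of the 36 ratios can pass, since the smallest exact p is 0.125, and with values under 50 raised to 50, 22 did. Values near 50, as for Grm8, Dlg4 and Grin2c, bound what these arrays can show.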
